A study of Mus musculus with 12 samples.

Results

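Glycolysis and glycogen metabolism were followed gene by gene through 36 genes that encode the glucose transporters, the isoforms of each glycolytic enzyme, the regulators around them and 4 enzymes of glycogen metabolism. The genes were chosen by name, as the listed symbols with their Ensembl identifiers, out of 38924 identifiers in the count tables. The list was made with earlier results of these data known, so counts of members that passed describe the list and do not test it. Of the 36, 35 passed the filter on low counts that 16645 genes passed. The exception was Pgam2, the muscle isoform of phosphoglycerate mutase, with 0 to 4 reads in each tumor.

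The tumors were pancreatic neuroendocrine tumors (PanNETs) of RIP1Tag2 mice on the C57Bl6 strain, in which the rat insulin promoter drives the SV40 T antigen in pancreatic beta cells, so that all 3 groups carry the oncogene. Poly(A) RNA was sequenced from 4 tumors of mice given saline (control), 4 of mice given sunitinib, which blocks the receptors of the angiogenic factors VEGF and PDGF, and 4 of mice given rapamycin, an mTOR inhibitor, plus sunitinib (R+S). Treatment started at 15.5 weeks of age and lasted 4 days, per the labels. The labels do not say whether tumors of a group came from separate mice, so p-values measure the spread between tumors.

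Glycolysis converts glucose to pyruvate in a chain of cytosolic steps, and most steps can be catalyzed by several isoforms encoded by separate genes with different tissue distributions and regulation. Oxygen shortage is known to raise many of these genes through the transcription factor HIF1, and the mTOR pathway is known to act on the same factor. Pyruvate dehydrogenase kinases restrain the entry of pyruvate into mitochondria, and glycogen stores glucose units that can later feed the chain. Normal adult beta cells are known for low levels of lactate dehydrogenase, of lactate transporters and of the hexokinase isoforms with high affinity for glucose.

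Reads on genes numbered 31872342 to 44215054 in a tumor. Several features of whole tumors moved with treatment. Of 28 markers of acinar cells, the enzyme-secreting cells around islets, 26 rose in both treated groups; their summed level was 41.8 to 146.2 CPM (counts scaled to a common library size after TMM normalization) in controls, 13817 to 49535 CPM with sunitinib and 3641 to 19790 CPM with R+S, and Amy2a5, Prss1 and Ptf1a were at 0 in every control. Of 12 endothelial markers 11 fell in both, from a summed 665 to 875 CPM in controls to 77.5 to 117 CPM with sunitinib and 146 to 189 CPM with R+S. All 12 beta-cell markers were detected in each group, and none passed the test. Sunitinib tumor 6 stood apart, with 784 CPM of Ins2 against 10612 to 43805 CPM in the other 11 tumors, 4.17 CPM of Pdx1 against 155 to 442 CPM, and 6357 CPM of Ttr against 27.7 to 257 CPM. In whole tumors, fewer cells of a type and less RNA per cell cannot be told apart. Each treatment also carries its own label prefixes (1 for all controls, 2 for sunitinib, 3 for R+S), whose meaning the labels do not give, and treatment and prefix cannot be told apart.

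HIF1 is known to bind a core of 5 bases, ACGTG, and promoter windows that hold it are shown here as context for members that moved together. RefSeq windows (GRCm38.p6, from 250 bases before to 50 bases after the transcription start) were available for 35 members. ACGTG on either strand was present in 18 of them (51.4%), against 21.8% of all 27025 genes with a window. By window it was present in 22 of 55 (40%), against 19.6% of all 32851 windows. The number of windows per gene was not matched. The share was 46.2% (6 of 13) among the members that rose with sunitinib and 54.5% (12 of 22) among the others. For 5 of the 6 that rose, the letters lay before the start, as did 250 of the 300 bases of a window. Among the 12 others with the letters, they were present before the start in all but Hk1 and Aldoc. The position is therefore no trait of the members that rose, and only the stretches of those 5 are printed. In the stretches below, written along the gene's own strand, capitals mark ACGTG and its reverse complement CACGT; in Fbp2 they overlap as CACGTG, a hexamer found in 7.15% of windows.
Slc2a1, chr4:119108684-119108738, plus strand: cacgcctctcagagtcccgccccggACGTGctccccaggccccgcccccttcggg
Aldoa, chr7:126799351-126799405, minus strand: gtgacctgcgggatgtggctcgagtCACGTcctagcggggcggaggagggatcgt
Pgk1, chrX:106186925-106186979, plus strand: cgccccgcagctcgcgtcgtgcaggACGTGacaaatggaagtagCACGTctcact
Pgam1, chr19:41911732-41911786, plus strand: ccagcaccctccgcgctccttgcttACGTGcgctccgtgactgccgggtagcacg
Fbp2, chr13:62858412-62858466, minus strand: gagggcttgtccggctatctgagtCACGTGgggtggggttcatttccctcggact
In Gapdh, the other of the 6, the letters lay 43 bases after the start. A match of letters is not a binding site, and no binding was measured here.

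The first comparison, sunitinib versus control, asks how the pathway differed in tumors given sunitinib. The main line of glycolysis was higher with sunitinib. Of the 35 members tested, 13 were higher at an adjusted p under 0.05 (edgeR quasi-likelihood test, Benjamini-Hochberg over all 16645 genes), against 1.93% of all genes, and 0 were lower, against 2.55% of all genes. As the list was made with earlier results of these data known, these shares are a description. At an unadjusted p under 0.05, 22 of the 35 passed in either direction, against 19.5% of all genes. The 13 were Slc2a1, Gpi1, Pfkl, Pfkp, Aldoa, Tpi1, Gapdh, Pgk1, Pgam1, Eno1, Pdk1, Fbp2 and Gys1. They span glucose import, the 8 consecutive conversions from glucose-6-phosphate to phosphoenolpyruvate, the brake on pyruvate oxidation and glycogen synthesis. Fbp2 is among the 13 although it passed the filter only through its sunitinib reads. A filter of 10 counts in every tumor left 12 without it. The median log2 fold change was 0.91 over the 35 members (0.50 without sunitinib tumor 6) and 0.03 over all genes, and 29 of the 35 were above 0. Groups did not overlap, with sunitinib higher, for 15 members (all genes: 5.17%) and, with sunitinib lower, for 0 (all genes: 5.76%). The count of 13 was 8 without control 3, 7 without control 4, and 7 when the fit held just the 8 tumors at issue, each time with 0 lower, and the share of all genes that passed upward was also smaller in those fits, at 1.08%, 1.02% and 0.865%.

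In the second comparison, R+S versus control, 1 member passed the same test, Pdk1, which was higher (all genes: 1.55%), and 0 were lower (all genes: 2.61%), while 10 passed at an unadjusted p under 0.05 in either direction (all genes: 20.1%). In a fit of just the 8 tumors at issue, 9 of the 34 members tested passed, and so did 15.8% of all genes: Pfkl, Aldoa, Eno1, Eno3, Pdk1, Pdk2 and Pdk4 were higher and Hk1 and Fbp1 lower. The median log2 fold change of the members was 0.35, against 0.01 over all genes. R+S tumors did not overlap with controls for 7 members that were higher (all genes: 11.6%) and 3 that were lower (all genes: 11.9%).

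The third comparison, R+S versus sunitinib, asks how the pathway differed in tumors given rapamycin as well. It gave 8 lower members, against 4.58% of all genes, and 0 higher, against 2.63% of all genes, which is again a description of the list. The 8 were Slc2a1, Pfkp, Tpi1, Gapdh, Pgk1, Eno1, Fbp1 and Fbp2, of which Fbp2 passed the filter only through its sunitinib reads. The median log2 fold change was -0.63 over the members (-0.39 without sunitinib tumor 6) and -0.02 over all genes. R+S tumors lay below every sunitinib tumor for 11 members (all genes: 9.73%) and above every one for 1, Pfkfb2 (all genes: 8.9%). These adjusted calls depended on which tumors were in the fit. Without R+S tumor 10 only Fbp1 passed (all genes: 1.86%), and without R+S tumor 4, 5 or 7, or when the fit held just the 8 tumors at issue, no member did, while of all genes 1, 0, 1 and 3 passed. In these 5 fits 16 to 20 members were under an unadjusted p of 0.05 (all genes: 22.9% to 25.8%), and the log2 fold changes of all 8 stayed negative. Without sunitinib tumor 5, by contrast, 11 members passed (all genes: 16.9%). The cause of these shifts was not tested.

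Of the 13 members that rose with sunitinib, 7 were also lower in R+S than in sunitinib tumors: Slc2a1, Pfkp, Tpi1, Gapdh, Pgk1, Eno1 and Fbp2. Fbp2 is counted here although it passed the filter only through its sunitinib reads. The other 6 (Gpi1, Pfkl, Aldoa, Pgam1, Pdk1 and Gys1) had negative log2 fold changes between -0.41 and -0.93 that did not pass. Without sunitinib tumor 6, the same 13 members rose with sunitinib (all genes: 1.96%). The same 8 were then lower with R+S than with sunitinib, joined by Gys1 (all genes: 5.89%), and Pdk2 was higher (all genes: 4.17%). Against control, R+S then gave Pdk1 and Pdk2 as higher (all genes: 4.11%) and Hk1 and Fbp1 as lower (all genes: 5.56%). These counts against control are near the shares of all genes. Both comparisons use the same 4 sunitinib tumors, so a high value there enters both, and the 2 counts are not independent. How many of all genes that rose with sunitinib were also lower with R+S was not computed. The 7 of 13 therefore cannot be read as particular to these members.

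**Figure D1:**
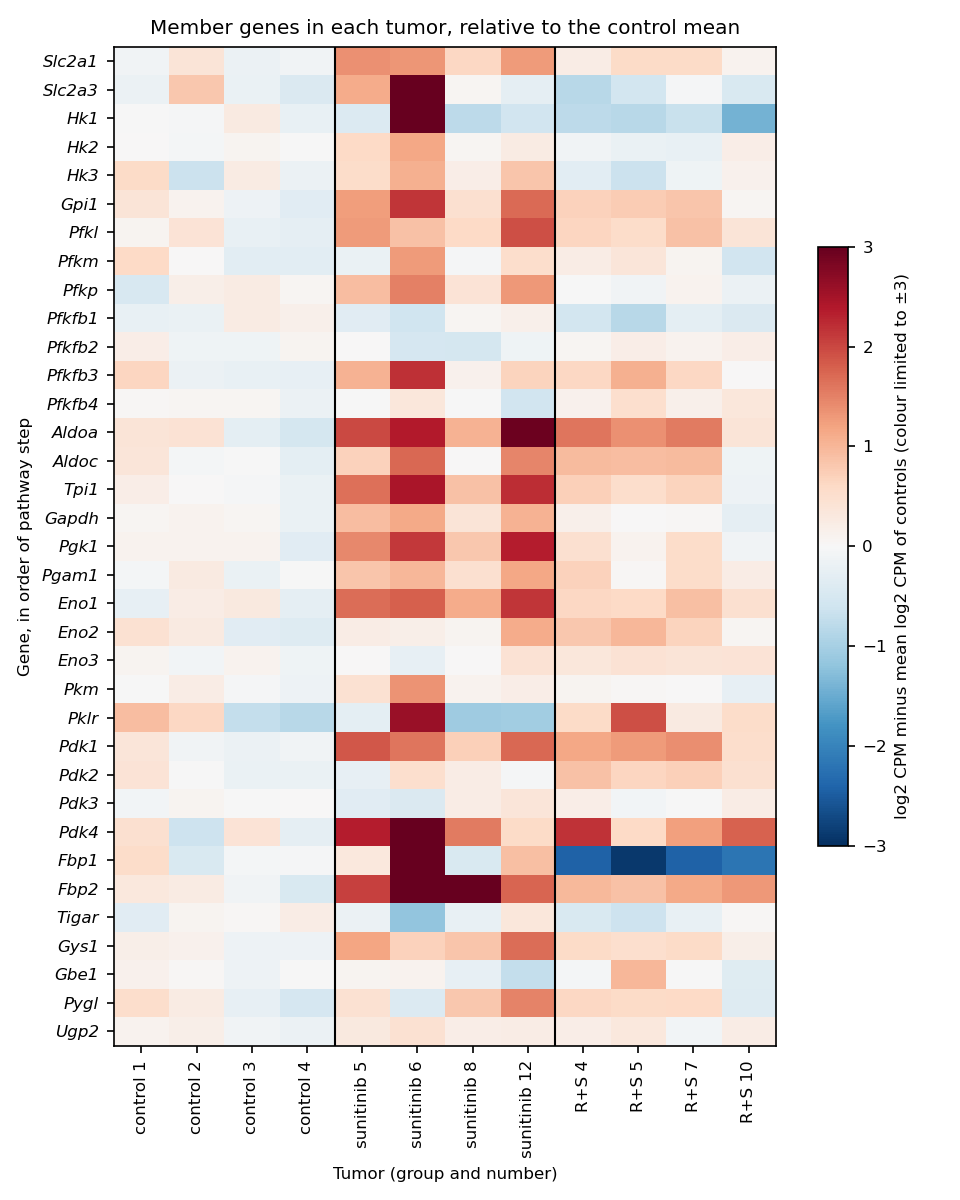
Each row is a member in the order of the pathway, each column a tumor, and the color gives log2 CPM minus the mean of the 4 controls, limited to 3 in either direction. Gpi1, Pfkl, Pfkp, Aldoa, Tpi1, Gapdh, Pgk1, Pgam1 and Eno1 are raised in the 4 sunitinib tumors and lower on average in R+S tumors, and sunitinib tumor 6 is by far the highest for Slc2a3 and Hk1.

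Glucose enters the cell through transporters of the SLC2 family. Slc2a1, which encodes GLUT1, measured 17, 24, 16.1 and 17.1 CPM in controls, 47.8, 46, 28 and 44.8 CPM in sunitinib tumors 5, 6, 8 and 12, and 21.5, 27.5, 27.5 and 19.7 CPM in R+S tumors 4, 5, 7 and 10. Every sunitinib tumor was above every tumor of the other groups, though tumor 8 only just exceeded R+S tumors 5 and 7. Slc2a1 rose with sunitinib by 1.17 ± 0.20 (log2 fold change ± SE) (adjusted p = 0.00517, edgeR) and had a log2 fold change of -0.79 ± 0.20 for R+S versus sunitinib (adjusted p = 0.0388, edgeR). R+S and control values overlapped, with a log2 fold change of 0.37 ± 0.20 (adjusted p = 0.316, edgeR).

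Slc2a3, encoding GLUT3, the neuronal transporter, was at 2.14 to 5.18 CPM in controls and 1.64 to 2.86 CPM with R+S. With sunitinib it was at 2.41, 3.03 and 6.35 CPM in 3 tumors and 178 CPM in tumor 6. That single tumor carried the difference: the log2 fold change with sunitinib was 3.93 with it and 0.34 without it, and neither passed the test.

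Hexokinases trap glucose as glucose-6-phosphate. Hk1, the housekeeping form, measured 7.49, 7.43, 9.05 and 6.48 CPM in controls, 5.72, 185, 4.35 and 5.07 CPM in sunitinib tumors 5, 6, 8 and 12, and 4.36, 4.24, 4.70 and 2.80 CPM with R+S. All R+S tumors and 3 of the 4 sunitinib tumors were below every control, and sunitinib tumor 6 was far above. For R+S versus control its log2 fold change was -0.92 ± 1.03 (adjusted p = 0.657, edgeR) in the fit of 12 tumors, whose spread for this gene includes tumor 6, and -0.92 with an adjusted p of 0.0189 (edgeR) without that tumor.

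Hk2, the insulin-responsive form of muscle and many tumors, stayed at 1.90 to 5.06 CPM in all tumors, with log2 fold changes of 0.58 ± 0.26 with sunitinib and -0.07 ± 0.26 with R+S against control. Hk3, a form of white blood cells, was at 1.98 to 4.68 CPM in controls, 3.56 to 6.60 CPM with sunitinib and 1.97 to 3.42 CPM with R+S. Its R+S and sunitinib values did not overlap, and its log2 fold change between them, -0.92 ± 0.31, did not pass (adjusted p = 0.0812, edgeR). None of the 3 hexokinases passed in any comparison, in contrast to the isomerase that follows them.

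Gpi1 encodes the isomerase that makes fructose-6-phosphate. It measured 270, 220, 185 and 162 CPM in controls, 490, 912, 289 and 667 CPM in sunitinib tumors 5, 6, 8 and 12, and 334, 348, 368 and 213 CPM in R+S tumors 4, 5, 7 and 10. Sunitinib tumors were above all controls, and R+S tumors lay between, overlapping with both. Gpi1 rose with sunitinib by a log2 fold change of 1.49 ± 0.32 (adjusted p = 0.0191, edgeR), and stood at -0.90 ± 0.31 for R+S versus sunitinib (adjusted p = 0.0859, edgeR).

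Phosphofructokinase commits sugar to glycolysis and has a liver (Pfkl), a muscle (Pfkm) and a platelet (Pfkp) isoform. Pfkl measured 132, 165, 107 and 104 CPM in controls, 303, 228, 189 and 475 CPM in sunitinib tumors 5, 6, 8 and 12, and 196, 184, 230 and 162 CPM in R+S tumors 4, 5, 7 and 10. Pfkp measured 70.9, 111, 117 and 103 CPM in controls, 188, 281, 131 and 242 CPM with sunitinib, and 98.3, 91.7, 107 and 87.8 CPM with R+S. Both rose with sunitinib without overlap with controls, but with R+S Pfkp lay within the range of controls while 3 of the 4 Pfkl values were above every control. The log2 fold changes with sunitinib were 1.24 ± 0.26 for Pfkl (adjusted p = 0.0202, edgeR) and 1.07 ± 0.22 for Pfkp (adjusted p = 0.0175, edgeR).

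For R+S versus sunitinib, Pfkp fell by 1.13 on the log2 scale (SE 0.22, adjusted p = 0.0261, edgeR), while Pfkl had a log2 fold change of -0.63 ± 0.26 (adjusted p = 0.133, edgeR). Pfkm, at 54.8 to 104 CPM in controls, 59.4 to 164 CPM with sunitinib and 46.1 to 87.6 CPM with R+S, overlapped across all groups, with log2 fold changes of 0.46 with sunitinib and -0.45 for R+S versus sunitinib, or 0.09 and -0.07 without sunitinib tumor 6. Per kilobase of exon, Pfkm (21.2 CPM per kb) and Pfkl (19.0) were at similar mean levels in controls, above Pfkp (7.5), and with sunitinib the means were 29.2, 44.8 and 15.7 CPM per kb. The log2 ratio of Pfkp to Pfkl counts was -0.90 to 0.12 in controls, -0.97 to 0.30 with sunitinib and -1.11 to -0.88 with R+S, with p = 0.0571 for R+S against either group (two-sided exact permutation test). Control 1 and sunitinib tumor 12 were the samples that overlapped with R+S.

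The 4 Pfkfb genes encode bifunctional enzymes that set fructose-2,6-bisphosphate, the activator of phosphofructokinase. None passed the test. Pfkfb2, the most abundant of the 4 per kilobase in all groups, was at 128 to 161 CPM in controls, 97.9 to 143 CPM with sunitinib and 147 to 163 CPM with R+S, all R+S values lying above all sunitinib values. Its log2 fold change between those groups was 0.40 ± 0.14 (adjusted p = 0.0812, edgeR).

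Pfkfb3, the strongly kinase-active isoform that low oxygen is known to induce, measured 26.5, 15, 14.5 and 14.3 CPM in controls, 34.8, 77.2, 18.5 and 27.1 CPM in sunitinib tumors 5, 6, 8 and 12, and 26.0, 35.8, 25.9 and 17.1 CPM in R+S tumors 4, 5, 7 and 10. Control 1 overlapped with both treated groups. The log2 fold change with sunitinib was 1.16 ± 0.41 (adjusted p = 0.144, edgeR), and 0.61 without tumor 6. Pfkfb1 (4.29 to 9.18 CPM over all tumors) and Pfkfb4 (9.66 to 20.5 CPM) had log2 fold changes from -0.54 to 0.32. R+S tumors lay below all controls for Pfkfb1 and above all controls for Pfkfb4.

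Tigar, a phosphatase that lowers the same activator, was at 44.9 to 66.2 CPM in controls, 24.9 to 71.3 CPM with sunitinib and 36.7 to 58.2 CPM with R+S. Groups overlapped, and its log2 fold changes ran from -0.31 to -0.08.

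**Figure D2:**
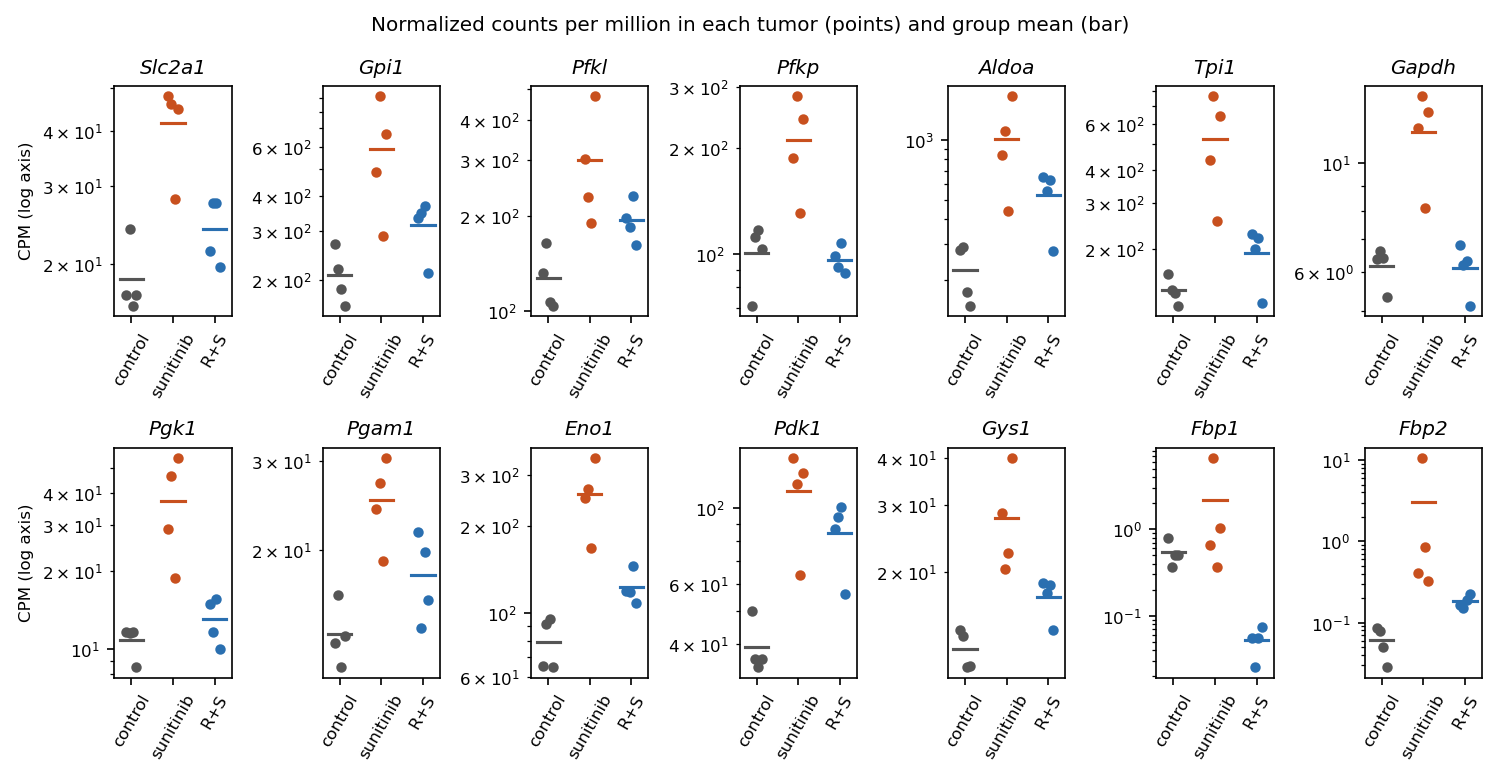
Points are normalized CPM of single tumors on log axes, with 1 panel per gene and bars at group means, for the 13 members that rose with sunitinib and Fbp1. Sunitinib tumor 8 is the lowest of its group in 12 of the 14 panels, and R+S means lie near controls for Pfkp and Gapdh but between the other groups for Aldoa and Pdk1.

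Aldolase splits fructose-1,6-bisphosphate, and Aldoa, the gene of aldolase A, had the highest level per kilobase of the members as counted in treated tumors. Aldoa measured 281, 291, 174 and 148 CPM in controls, 840, 1110.5, 440 and 1645 CPM in sunitinib tumors 5, 6, 8 and 12, and 650, 553, 630 and 279 CPM in R+S tumors 4, 5, 7 and 10. All sunitinib tumors were above all controls, and 3 R+S tumors were too, R+S tumor 10 being within the control range. Against control, Aldoa had log2 fold changes of 2.17 ± 0.41 with sunitinib (adjusted p = 0.00891, edgeR) and 1.24 ± 0.39 with R+S (adjusted p = 0.104, edgeR).

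Between R+S and sunitinib Aldoa differed by -0.93 ± 0.39 on the log2 scale, with overlap (adjusted p = 0.136, edgeR). Per kilobase and as counted, Aldoa moved from 76.8 CPM in controls, second to Pkm, to 347 CPM with sunitinib and 181 CPM with R+S, the highest of the 36 in both. Reads with more than 1 place in the genome are not counted, and how far this sets the order was not tested. Aldoc, the brain isoform, was far lower, at 9.53 to 15.1 CPM in controls, 11.9 to 38.7 CPM with sunitinib and 10.7 to 22.7 CPM with R+S, and did not pass. The log2 ratio of Aldoc to Aldoa counts was -4.68 to -3.90 in controls, -5.67 to -4.84 with sunitinib and -4.84 to -4.63 with R+S. Sunitinib ratios lay below those of both other groups (p = 0.0286 each, two-sided exact permutation test), although the highest sunitinib and the lowest R+S ratio nearly met.

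Tpi1, the triosephosphate isomerase, measured 161, 140, 136 and 122 CPM in controls, 435, 761, 255 and 644 CPM in sunitinib tumors 5, 6, 8 and 12, and 227, 199, 220 and 124 CPM in R+S tumors 4, 5, 7 and 10. Sunitinib tumors were above all others, and 3 R+S tumors were above controls. Tpi1 had log2 fold changes of 1.91 ± 0.30 with sunitinib (adjusted p = 0.00319, edgeR) and -1.44 ± 0.30 for R+S versus sunitinib (adjusted p = 0.0277, edgeR). For R+S versus control it was 0.46 ± 0.30 (adjusted p = 0.405, edgeR).

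Gapdh, Pgk1 and Pgam1 encode the dehydrogenase, kinase and mutase of the later steps of glycolysis. Of the 50-base words of their transcripts, 24.7%, 53.9% and 36.2% also occur in transcripts of other genes, and reads with more than 1 place in the genome are not counted. How far this lowers their levels was not tested, so their places in an order of the members are not read. Gapdh was at 6.18 ± 0.58 CPM (SD, n = 4) in controls. Differences between groups use the same countable part of each gene in every tumor.

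Gapdh measured 6.37, 6.61, 6.42 and 5.33 CPM in controls, 11.8, 13.7, 8.10 and 12.7 CPM in sunitinib tumors 5, 6, 8 and 12, and 6.82, 6.21, 6.31 and 5.12 CPM in R+S tumors 4, 5, 7 and 10. Sunitinib tumors were above all 8 others, and R+S and control values interleaved. Gapdh had log2 fold changes of 0.91 ± 0.20 with sunitinib (adjusted p = 0.0226, edgeR), -0.92 ± 0.20 for R+S versus sunitinib (adjusted p = 0.0291, edgeR) and -0.02 ± 0.20 for R+S versus control (adjusted p = 0.976, edgeR).

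Pgk1 measured 11.6, 11.5, 11.6 and 8.48 CPM in controls, 29.0, 46.5, 18.8 and 54.5 CPM with sunitinib, and 14.9, 11.6, 15.6 and 9.98 CPM with R+S, in the same order of tumors. Again the 4 sunitinib tumors were the 4 highest. Pgk1 rose with sunitinib by 1.79 ± 0.30 on the log2 scale (adjusted p = 0.00436, edgeR). Its log2 fold change between R+S and sunitinib was -1.52 ± 0.30 (adjusted p = 0.0258, edgeR).

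Pgam1 measured 13, 16.3, 11.7 and 13.5 CPM in controls, 24.1, 27.1, 19.0 and 30.4 CPM with sunitinib, and 21.7, 14.0, 19.8 and 15.9 CPM with R+S. Sunitinib tumors were above controls, while R+S tumors 4 and 7 exceeded the lowest sunitinib tumor. Its log2 fold changes were 0.88 ± 0.19 with sunitinib (adjusted p = 0.0205, edgeR) and -0.49 ± 0.19 for R+S versus sunitinib (adjusted p = 0.109, edgeR). Pgam2 was close to absent, with 4, 3 and 6 reads in all controls, sunitinib tumors and R+S tumors together.

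Enolase makes phosphoenolpyruvate and has 3 isoforms among the members. Eno1, the ubiquitous isoform, measured 65.2, 91.3, 95 and 64.6 CPM in controls, 249, 269, 168 and 344 CPM in sunitinib tumors 5, 6, 8 and 12, and 119, 118, 145 and 108 CPM in R+S tumors 4, 5, 7 and 10. The 3 groups did not overlap with one another. Eno1 had the smallest adjusted p of all members with sunitinib, at a log2 fold change of 1.70 ± 0.22 (adjusted p = 0.000613, edgeR), and R+S tumors were lower than sunitinib tumors (log2 fold change -1.07 ± 0.21, adjusted p = 0.0261, edgeR). Against control, R+S stood at 0.63 ± 0.21 (adjusted p = 0.119, edgeR).

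Eno2, the neuronal and neuroendocrine isoform, measured 97.7, 85.7, 56.2 and 54.9 CPM in controls, 83.6, 80.6, 75.2 and 154 CPM with sunitinib, and 125, 143, 113 and 73.6 CPM with R+S. The groups overlapped in every pair. Eno3, the muscle isoform, stayed at 27.1 to 31.8 CPM in controls, 24.8 to 39.7 CPM with sunitinib and 37.6 to 40.1 CPM with R+S. The log2 fold changes with sunitinib were 0.42 ± 0.28 for Eno2 and 0.07 ± 0.14 for Eno3, and neither gene passed in any comparison.

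The log2 ratio of Eno2 to Eno1 counts was 0.58, -0.09, -0.76 and -0.24 in controls, -1.57, -1.74, -1.15 and -1.16 in sunitinib tumors 5, 6, 8 and 12, and 0.07, 0.27, -0.36 and -0.55 with R+S. Sunitinib tumors lay below both other groups without overlap (p = 0.0286 each, two-sided exact permutation test). The R+S mean (-0.14 ± 0.38, SD, n = 4) was close to the control mean (-0.13 ± 0.55), with p = 0.971 (exact permutation test). Eno3 to Eno1 behaved alike, with means of -1.40 ± 0.30 in controls, -3.02 ± 0.40 with sunitinib and -1.65 ± 0.19 with R+S (SD, n = 4 each). Since 26.0% of the 50-base words of Eno1 occur in other genes, the ratio itself is biased and only its differences between groups are used.

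Pyruvate kinase makes pyruvate. Pkm, by far the more abundant gene, was at 570 to 739 CPM in controls, 680 to 1625 CPM with sunitinib, where tumor 6 was the highest, and 541 to 673 CPM with R+S. R+S values lay below all sunitinib values, but the log2 fold change of -0.64 ± 0.25 did not pass (adjusted p = 0.112, edgeR), and it was -0.28 without tumor 6. Pklr, the liver and red cell gene, varied from 1.98 to 25.9 CPM over all tumors, and its groups overlapped, with a log2 fold change with sunitinib of 0.78, or -0.97 without tumor 6. This step was the only one after the hexokinases, as far as pyruvate, at which no member passed with sunitinib. The counts are per gene, so the spliced forms of Pkm could not be told apart here.

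**Figure D3:**
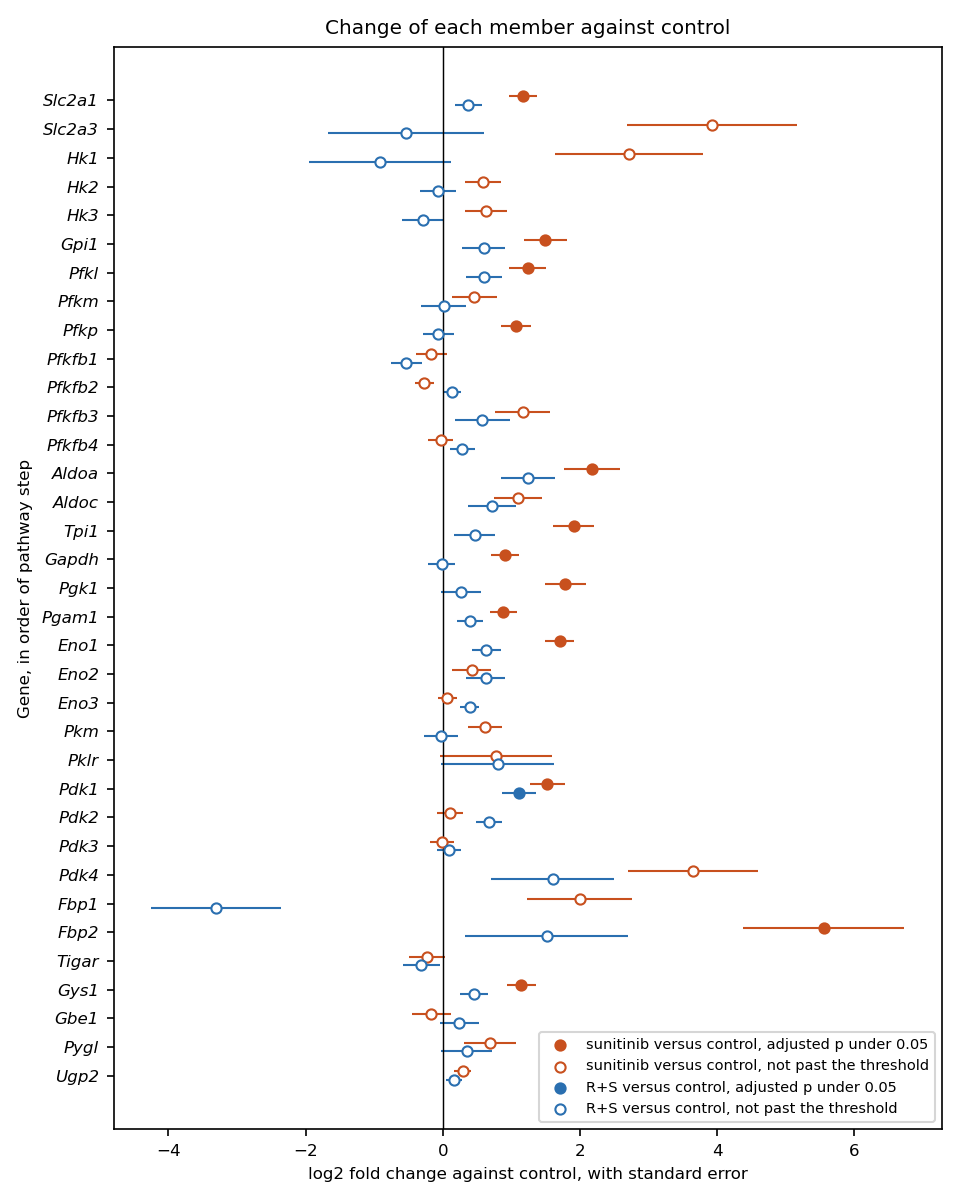
Points give the edgeR log2 fold change against control with its standard error, for sunitinib and for R+S, filled where the adjusted p was under 0.05. The filled sunitinib points lie between 0.88 (Pgam1) and 5.55 (Fbp2), while Pdk1 is the only filled R+S point.

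Pyruvate dehydrogenase kinases inhibit the complex that turns pyruvate into acetyl-CoA. Pdk1 measured 50.03, 36.1, 34.2 and 36.2 CPM in controls, 141, 118, 63.7 and 127 CPM in sunitinib tumors 5, 6, 8 and 12, and 86.9, 94.1, 101 and 56.0 CPM in R+S tumors 4, 5, 7 and 10. All 8 treated tumors were above all controls, and the treated groups overlapped. Pdk1 had log2 fold changes of 1.52 ± 0.25 with sunitinib (adjusted p = 0.0042, edgeR), 1.11 ± 0.25 with R+S (adjusted p = 0.0319, edgeR) and -0.41 ± 0.25 between them (adjusted p = 0.28, edgeR). The R+S call was lost when control 2, 3 or 4, or R+S tumor 4, 5 or 7, was left out, the log2 fold change staying between 1.02 and 1.27.

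Pdk2, the broadly expressed isoform, was at 14.4 to 21.9 CPM in controls, 13.9 to 23.4 CPM with sunitinib and 23.1, 26.0, 27.3 and 30.7 CPM with R+S. R+S tumors were above all controls and all but 1 sunitinib tumor, number 6. Against control, R+S gave a log2 fold change of 0.67 ± 0.19 (adjusted p = 0.0729, edgeR) and 0.56 ± 0.19 versus sunitinib (adjusted p = 0.0828, edgeR). Without sunitinib tumor 6 these were 0.67 and 0.71, with adjusted p of 0.0301 and 0.0384 (edgeR). Pdk3 stayed at 16.1 to 27.8 CPM in all tumors, with log2 fold changes of at most 0.09.

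Pdk4, the isoform induced by fasting, was low, at 0.21 to 0.51 CPM in controls, 0.55, 1.13, 2.02 and 15.1 CPM with sunitinib and 0.56 to 1.78 CPM with R+S. Both treated groups were above all controls. Its log2 fold change with sunitinib was 3.64 ± 0.95 (adjusted p = 0.0524, edgeR), and 1.72 without tumor 6. The log2 ratio of Pdk1 to Pdk2 was 1.12 to 1.33 in controls, 1.73 to 3.34 with sunitinib and 1.28 to 1.89 with R+S, sunitinib lying above controls (p = 0.0286) and R+S overlapping with both (p = 0.0571 versus control and 0.0857 versus sunitinib, exact permutation tests).

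Fructose-1,6-bisphosphatase runs opposite to phosphofructokinase, in gluconeogenesis, and its 2 genes gave different patterns. Fbp1, the liver and kidney isoform, had 37, 14, 20 and 18 reads in controls, 26, 242, 14 and 32 reads in sunitinib tumors 5, 6, 8 and 12, and 2, 1, 2 and 3 reads in R+S tumors 4, 5, 7 and 10. All R+S tumors were below all other tumors, and sunitinib tumor 6 was far above the rest. The log2 fold change for R+S versus sunitinib was -5.30 ± 0.96 (adjusted p = 0.0252, edgeR), and -3.62 ± 0.49 without tumor 6 (adjusted p = 0.0168, edgeR).

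Against controls, R+S had a Fbp1 log2 fold change of -3.30 ± 0.95 (adjusted p = 0.0729, edgeR), with an adjusted p of 0.00198 (edgeR) without sunitinib tumor 6. The 8 R+S reads against 89 control reads gave a ratio of 0.0938 per normalized read (95% exact interval 0.0393 to 0.193, counting error only). With sunitinib and without tumor 6, the 72 reads gave a ratio of 1.19 to controls (0.861 to 1.64). Fbp1 was thus low in R+S tumors relative to both other groups, at read counts that leave its fold imprecise.

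Fbp2, the muscle isoform, had 4, 3, 2 and 1 reads in controls, 16, 385, 32 and 10 reads in sunitinib tumors 5, 6, 8 and 12, and 6, 6, 7 and 9 reads in R+S tumors 4, 5, 7 and 10. In CPM, sunitinib tumors were above R+S tumors and R+S tumors above controls, without overlap. The log2 fold change with sunitinib was 5.55 ± 1.18 (adjusted p = 0.0191, edgeR) and 3.02 ± 0.46 without tumor 6 (adjusted p = 0.00236, edgeR). For R+S versus sunitinib it was -4.04 ± 1.06 (adjusted p = 0.0431, edgeR) and -1.51 ± 0.41 without tumor 6 (adjusted p = 0.0434, edgeR). Every control and R+S tumor had fewer than 10 reads, so Fbp2 passed the filter only through the sunitinib tumors. Its calls therefore lean on the group where it is high.

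The pooled Fbp2 reads without tumor 6 were 58 with sunitinib and 10 in controls, a ratio of 8.54 (95% exact interval 4.33 to 18.7, counting error only). The log2 ratio of Fbp2 to Fbp1 was -3.62 to -2.05 in controls, -1.63 to 1.16 with sunitinib and 1.38 to 2.12 with R+S. The 3 groups did not overlap (p = 0.0286 for each pair, two-sided exact permutation test), but with a pseudocount of 5 in place of 0.5 the sunitinib ratios overlapped with both other groups.

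**Figure D4:**
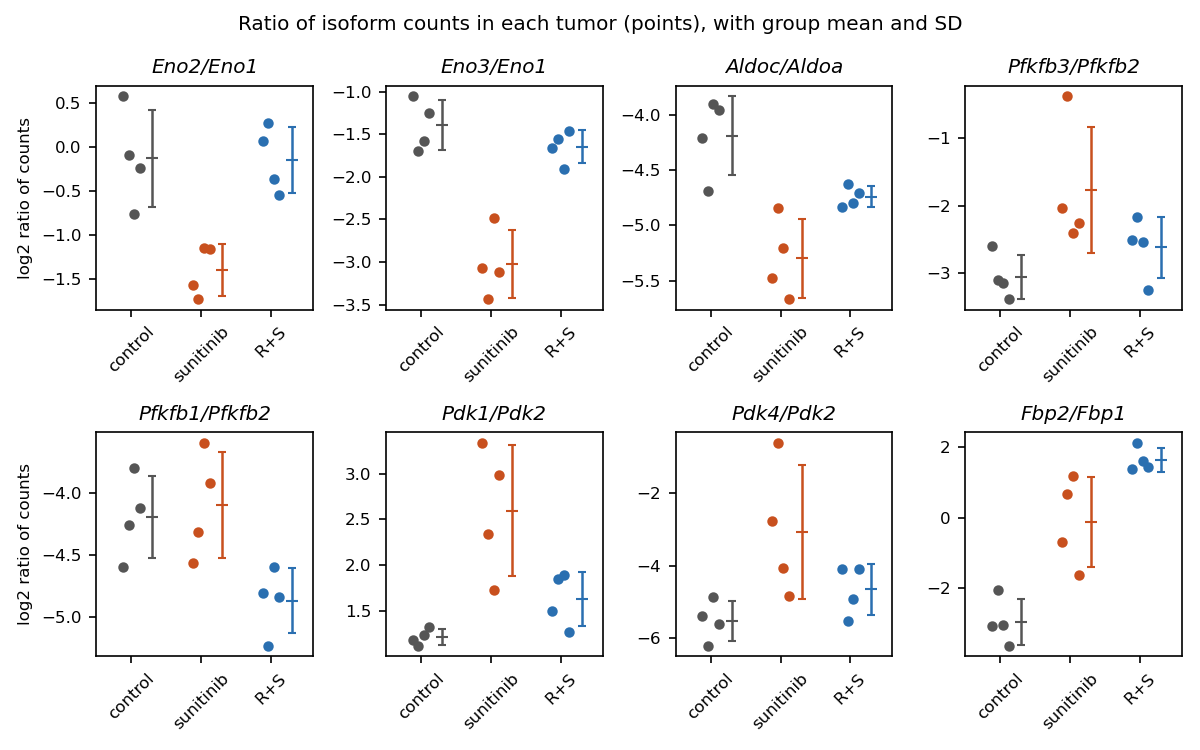
Points are log2 ratios of the counts of 2 isoforms in single tumors, with group mean and SD beside them. Sunitinib points lie below both other groups for Eno2/Eno1, Eno3/Eno1 and Aldoc/Aldoa, R+S points lie below the sunitinib points for Pfkfb1/Pfkfb2, and Fbp2/Fbp1 is lowest in controls and highest with R+S.

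In all, 17 isoform ratios were compared in 3 pairs of groups, and 15 of the 51 tests reached 0.0286, the smallest p that 4 tumors against 4 allow. They were 7 for sunitinib versus control, 3 for R+S versus control and 5 for R+S versus sunitinib. After Benjamini-Hochberg adjustment over the 51 tests the smallest value was 0.0971, so none passed 0.05. Beside those given, they were Pfkfb3/Pfkfb2, higher with sunitinib than in controls by 1.29 (log2), or 0.83 without sunitinib tumor 6; Pdk4/Pdk2, higher with sunitinib by 2.44, or 1.62 without that tumor; Pfkfb1/Pfkfb2, lower with R+S than with sunitinib by a difference of -0.77; and, for R+S versus control, Slc2a3/Slc2a1 (-0.85) and Hk2/Hk1 (0.85).

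Glycogen metabolism was represented by 4 genes. Gys1, the glycogen synthase of muscle and most tissues outside liver, measured 14.1, 13.6, 11.2 and 11.3 CPM in controls, 28.5, 20.3, 22.4 and 39.9 CPM in sunitinib tumors 5, 6, 8 and 12, and 18.7, 17.6, 18.5 and 14.1 CPM in R+S tumors 4, 5, 7 and 10. Sunitinib tumors were above all others, and R+S tumors 4, 5 and 7 were above every control. It rose with sunitinib by 1.15 ± 0.21 on the log2 scale (adjusted p = 0.00746, edgeR). For R+S versus sunitinib the log2 fold change was -0.69 ± 0.21 (adjusted p = 0.0608, edgeR), and -0.81 without sunitinib tumor 6 (adjusted p = 0.0321, edgeR).

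The branching enzyme Gbe1 was at 14.9 to 18.0 CPM in controls, 9.95 to 17.7 CPM with sunitinib and 12.8 to 33.0 CPM with R+S, and the liver phosphorylase Pygl, which breaks glycogen down, at 7.95 to 16.3, 8.59 to 31.7 and 8.69 to 17.4 CPM. Ugp2, which makes the UDP-glucose that glycogen synthase uses, was at 31.7 to 40.0, 41.1 to 48.6 and 33.8 to 44.2 CPM. Sunitinib values of Ugp2 were all above controls, by a log2 fold change of only 0.29 ± 0.12 (adjusted p = 0.208, edgeR). Gys1 was the only 1 of the 4 that passed in any comparison.

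Beyond the members, 52 of 58 other genes of the pathway (further transporters and isoforms, lactate and pyruvate handling, glycogen regulators) were tested. With sunitinib 3 were higher and 0 lower (all genes: 1.93% and 2.55%). With R+S 0 were higher and 1 lower than in controls (all genes: 1.55% and 2.61%). That 1 gene is 1.92% of those tested, below the share of all genes. In R+S against sunitinib tumors 0 were higher and 6 lower (all genes: 2.63% and 4.58%). The median log2 fold changes were 0.16, -0.03 and -0.23. So 5.77% of these genes passed upward with sunitinib, against 37.1% of the members, which were listed with earlier results of these data known.

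The 3 that rose were Slc16a3, Hkdc1 and Ldha, and all 3 were also among the 6 lower with R+S than with sunitinib. As for the members, both comparisons share the sunitinib tumors, and the matching share over all genes was not computed. Slc16a3 encodes MCT4, the lactate exporter, and was at 2.99 to 4.16 CPM in controls, 12.9 to 78.4 CPM with sunitinib and 6.29 to 15.1 CPM with R+S, with log2 fold changes of 3.82 ± 0.48 with sunitinib (adjusted p = 0.000554, edgeR) and -2.11 ± 0.44 for R+S versus sunitinib (adjusted p = 0.0277, edgeR), or 3.51 and -1.80 without sunitinib tumor 6. Ldha, the lactate dehydrogenase of anaerobic glycolysis, was at 12.7 to 18.5 CPM in controls, 52.8, 340, 25.5 and 66.9 CPM in sunitinib tumors 5, 6, 8 and 12, and 13.6 to 18.1 CPM with R+S, so that R+S and control ranges coincided. Its log2 fold changes were 2.93 ± 0.65 (adjusted p = 0.0249, edgeR) and -2.92 ± 0.65 (adjusted p = 0.0306, edgeR). Without sunitinib tumor 6 they were smaller, at 1.60 ± 0.27 (adjusted p = 0.00448, edgeR) and -1.59 ± 0.27 (adjusted p = 0.0195, edgeR). The call with sunitinib was lost when any 1 control was left out, with adjusted p of up to 0.0882 (edgeR).

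Hkdc1, a hexokinase-like gene, was at 0.0254 to 0.171, 0.385 to 5.42 and 0.194 to 0.322 CPM in the 3 groups, with log2 fold changes of 5.11 with sunitinib and -3.44 for R+S versus sunitinib, or 4.60 and -2.93 without sunitinib tumor 6. Hkdc1 was near the floor outside the sunitinib tumors, so its calls lean on the group where it is high. The calls for R+S versus sunitinib of all 6 were lost when any 1 R+S tumor was left out. The other 3 lower with R+S than with sunitinib were Pgm1, which links glucose-6-phosphate to glycogen (log2 fold change -0.75), Pdhb, a subunit of pyruvate dehydrogenase (-0.44), and Gsk3a, a kinase that inhibits glycogen synthase (-0.30). The calls of these 3 were also lost without sunitinib tumor 8 or 12, and that of Gsk3a without sunitinib tumor 6 as well. Gys2, the liver glycogen synthase, was the gene lower with R+S than in controls, at 0.126 to 0.173 against 0.364 to 0.846 CPM (log2 fold change -2.16 ± 0.39, adjusted p = 0.0095, edgeR). Gys2 was near the floor in R+S tumors, so its call leans on the controls, the group where it is high. Sunitinib tumors were at 0.153 to 0.449 CPM, with a log2 fold change against control of -1.07 ± 0.37 that did not pass (adjusted p = 0.137, edgeR).

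**Figure D5:**
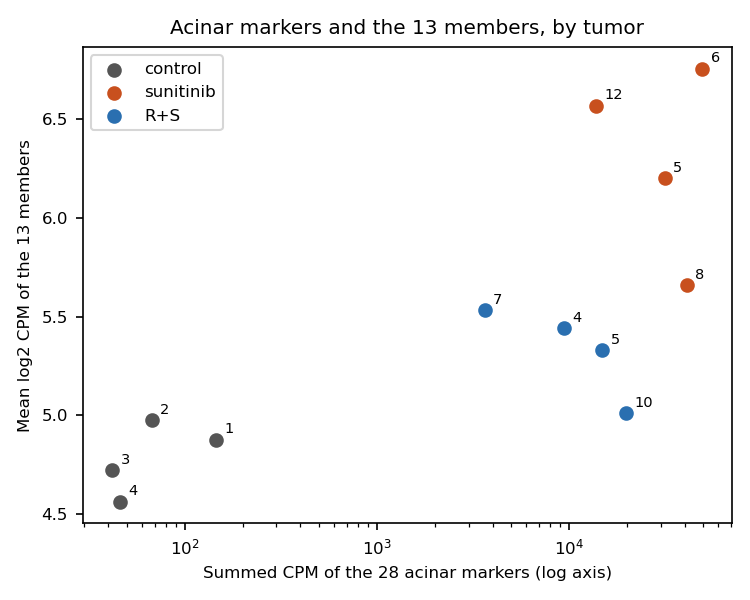
Each point is a tumor, numbered as in the labels, with the summed CPM of 28 acinar markers on a log axis and the mean log2 CPM of the 13 members that rose with sunitinib. Controls lie lowest on both axes and sunitinib tumor 6 highest on both, while R+S tumor 7 has the fewest acinar reads and the highest member mean of its group, and sunitinib tumor 12 combines the fewest acinar reads of its group with the second highest mean.

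The mean log2 CPM of the 13 members was 4.56 to 4.98 in controls, 5.66 to 6.76 with sunitinib and 5.01 to 5.53 with R+S. As the 13 were chosen by their sunitinib values, this is a description. Summed acinar markers had the same order of group medians (56.6, 36244 and 12182 CPM), and 26 of 28 passed upward in both treated groups. Within controls and within sunitinib tumors the orders were mixed, and within R+S tumors they were opposite. From the fewest to the most acinar reads, R+S tumors 7, 4, 5 and 10 had means of 5.53, 5.44, 5.33 and 5.01 for the 13 members. Sunitinib tumor 6 had both the most acinar reads (49535 CPM) and the highest mean of the 13 members (6.76), and sunitinib tumor 8, second in acinar reads (40971 CPM), had the lowest mean of its group. Sunitinib tumor 12 had the fewest acinar reads of its group (13817 CPM) and the highest Aldoa, Pgk1, Pgam1, Eno1, Pfkl and Gys1. R+S tumor 10 had the most of its group (19790 CPM) and the lowest Slc2a1, Gpi1, Pfkl, Pfkp, Aldoa, Tpi1, Gapdh, Pgk1, Eno1, Pdk1 and Gys1, while R+S tumor 7 had the fewest (3641 CPM) and the highest member mean.

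With the acinar score as a covariate, 0 members passed with sunitinib, as did 0 of all 16645 genes (edgeR; 5 members and 775 genes at an unadjusted p under 0.05), in a fit where the score nearly separates controls from treated tumors. For R+S versus sunitinib, 2 members passed in that fit, Pfkp and Eno1, both lower (all genes: 0.372% lower). Acinar reads and treatment cannot be told apart in these tumors. The loss of endothelial markers went along with the members across the groups as well, deepest with sunitinib, and its part in these results was not tested.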

How the data were processed

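RNA was extracted from 12 tumors (miRNeasy), and strand-specific poly(A) libraries were made. The authors deposited 1 raw count per Ensembl gene and tumor; per the submitters' processing notes the tools were cutadapt 1.2.1, TopHat2 2.0.9 and HTSeq 0.5.4p3 on GRCm38, and the annotation release is not given in the sources used here. HTSeq summary lines were left out (11.1% to 18.8% of reads lay on no gene). Symbols, exon lengths and shared 50-base words came from GENCODE M21. The members and lists were chosen with earlier results of these data known.

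Counts were filtered (filterByExpr, minimum count 10, minimum total 15), TMM-normalized and tested in edgeR 4.0.16 (robust quasi-likelihood F-test, R 4.3.3), with 1 fit of 12 tumors, 3 contrasts, and Benjamini-Hochberg adjustment over 16645 genes at 0.05. The SE was taken as the absolute log2 fold change divided by the root of F. A prior count of 2 was added for log2 CPM and a pseudocount of 0.5 for log2 isoform ratios, which were tested over the 70 arrangements of 4 tumors against 4 (SciPy 1.17.1). Named were all members that passed, and other pathway genes that passed for R+S versus sunitinib (at most 8); Gys2 was named after its values were seen. In simulated counts for 16645 genes (sunitinib contrast), 39 of 100 genes with a log2 change of 1 and 70 of 100 with a log2 change of 2 were recovered, beside 4 false calls. Alternatives were DESeq2 1.42.0, other scalings and filters, 8-tumor fits, summed prefixes, an acinar covariate, a fold-change minimum (1 on the log2 scale), and leaving out single tumors.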

Additional observations from a re-analysis of the deposited data

Results flagged for a closer look

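In each group of 4 tumors, the gap between the highest or lowest log2 CPM and its neighbor was divided by the group's range and compared with the critical value of Dixon's test at the 95% level. Of 105 groups (35 members in 3 groups) 11 exceeded it, 6 in controls, 3 with sunitinib and 2 with R+S, where chance gives about 1 in 20.

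Controls were flagged for Slc2a1 in tumor 2, the highest (ratio 0.860), Pfkfb3 in tumor 1, the highest (0.924), Pdk1 in tumor 1, the highest (0.851), and Pfkfb4 (0.908), Gapdh (0.8294) and Pgk1 (0.961) in tumor 4, the lowest. Sunitinib tumors were flagged for Hk1 in tumor 6, the highest at 185 CPM (0.928), Slc2a1 in tumor 8, the lowest at 28 CPM (0.878), and Eno2 in tumor 12, the highest at 154 CPM (0.853). R+S tumor 10 was the lowest of its group for Aldoc at 10.7 CPM (0.981) and for Pygl at 8.69 CPM (0.953). Slc2a3, Fbp1, Fbp2 and Pdk4, at which sunitinib tumor 6 was also the highest, were not past the value, since the other sunitinib tumors varied as well.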

How the results depend on the processing

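The count of members that passed was 13 with sunitinib, 1 for R+S versus control and 8 for R+S versus sunitinib. Of all genes, 4.48%, 4.16% and 7.21% passed. With only the tumors being compared in the fit the members were 7, 9 and 0 (all genes: 2.33%, 15.8% and 0.0186%); with the acinar score as a covariate 0, 0 and 2 (0%, 0% and 0.607%); with label prefixes summed 13, 2 and 10 (4.39%, 3.92% and 6.09%); and with DESeq2 15, 4 and 12 (8.87%, 10.1% and 18.3%), where 12, 1 and 7 were members that also passed in edgeR and Fbp2 had no adjusted p. Leaving out 1 tumor at a time gave 7 to 15, 0 to 4 and 0 to 11 (all genes: 2.61% to 5.34%, 1.73% to 9.67% and 0% to 16.9%); the sunitinib count was 8 without control 3 and 7 without control 4, and the last count was 1 without R+S tumor 10 and 0 without R+S tumor 4, 5 or 7. Upper-quartile or library-size scaling and TMM without acinar markers left 13, 1 and 8, no filter 13, 1 and 6, 10 counts in every tumor 12, 1 and 7, and a fold-change minimum (1 on the log2 scale) 11, 1 and 6. Of 2393 refitted log2 fold changes, of members and of the other pathway genes that passed, 2 changed sign against a call: with the acinar covariate, Fbp2 was -0.87 and Hkdc1 -2.37 with sunitinib. Of the others, 169 lost and 41 gained a call. The causes were not tested.

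Isoform ratios at p = 0.0286 (exact permutation test) numbered 7, 3 and 5, and 7, 3 and 4 with a pseudocount of 5. The 7 for sunitinib versus control were not the same ratios. With a pseudocount of 5, Fbp2/Fbp1 was lost (p = 0.0571, exact permutation test) and Pgam2/Pgam1 entered, a ratio whose numerator had 0 to 4 reads in each tumor. The exact test was not run with 1 tumor left out. No paired analysis was possible because the groups share at most 1 replicate number. Intervals cover counting error only, and Fbp1, Fbp2, Pdk4 and Pgam2 are limited by few reads.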

Other observations

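Other markers showed what else changed in the tumors, without a test of their part in the results. All 5 red cell genes tested fell with both treatments, with median log2 fold changes of -6.11 with sunitinib and -4.30 with R+S. Of 12 macrophage markers, 0 rose and 2 fell with each treatment against control, and of 12 pericyte and fibroblast markers 3 fell with sunitinib and 1 with R+S. Of 8 duct markers, 3 rose with sunitinib and 0 with R+S. None of the 5 alpha-cell genes tested passed, although their summed level was 7008 CPM in sunitinib tumor 6 against 182 to 684 CPM in the other 11 tumors. Of 8 muscle genes, 2 were tested and none passed, and their sum stayed at 3.90 to 8.98 CPM in all tumors, beside the muscle isoform Fbp2 that rose with sunitinib.

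Of the members, per kilobase and as counted, Pkm (128 CPM), Aldoa (76.8), Tpi1 (50.8) and Gpi1 (32.4) had the highest means in controls. With sunitinib the order was Aldoa (347), Pkm (195), Tpi1 (190), Gpi1 (91.3) and Eno1 (47.8), and with R+S Aldoa (181), Pkm (125), Tpi1 (69.98) and Gpi1 (48.9). With sunitinib, Pkm and Tpi1 differed by less than their SD of 88.0 and 81.5 CPM per kb. Of the 50-base words of Pkm and Eno1, 25.8% and 26.0% also occur in other genes, and how far this sets the order was not tested.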
